A study of Mus musculus with 3 samples.

Results

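The genes described here are 9 genes of the integrated stress response, *Atf4*, *Atf5*, *Ddit3*, *Ddit4*, *Trib3*, *Chac1*, *Asns*, *Sesn2* and *Stc2*, out of 28953 genes listed in 3 single-cell RNA-seq libraries. They were chosen by name with the difference between the D10 culture and the E14.5 tail already known, so that their values in that comparison are a description. All 9 were listed in each library, among 27755 genes for the culture and the tail and 25936 for the D6 paraxial mesoderm (PM). The culture began as mouse embryonic stem cells (mESCs) carrying ScxGFP, a transgenic reporter of the tendon transcription factor *Scx*, made from blastocysts of the reporter mouse. Until D2 the mESCs grew as embryoid bodies in LDN-193189, which blocks BMP signalling. From D2 to D6 the medium also held CHIR, which activates Wnt signalling, to turn the cells into PM. The D10 culture went on from that stage with TGFβ1, the hedgehog agonist SAG and FGF2, and every cell of the dish was taken without sorting for the reporter. The E14.5 tail held freshly dissociated cells of mouse embryos. Which mESC line was used and how many embryos were pooled are not given in the sources used here. Each condition was 1 library, so that no difference between conditions has a replicate check, and no test was run.

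The integrated stress response begins when a kinase that senses misfolded protein in the endoplasmic reticulum, scarce amino acids, viral RNA or haem shortage phosphorylates the translation initiation factor eIF2. Most protein synthesis then slows, while upstream reading frames in the *Atf4* transcript let more ATF4 protein be made. ATF4 and its partners switch on genes of amino acid supply, redox balance and, where stress persists, cell death, so that transcripts of the target genes report the response more directly than *Atf4* mRNA does. Cells that secrete much collagen, such as chondrocytes and osteoblasts, are known to use this pathway as they differentiate.

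The culture library held 7821 cells, the tail library 2052 and the D6 PM library 5954. Median depth was 5622, 13512 and 8171 unique molecular identifiers per cell (UMIs, each standing for 1 captured transcript). The tail cells were therefore the most deeply sequenced. Between 3 and 10 cell barcodes recurred in any pair of libraries, and a doublet caller marked 116, 9 and 81 cells. Cells are grouped by the cluster codes deposited with the counts. The culture and the tail share 1 set of codes, while the D6 PM has its own. In the culture, cluster 1 (2964 cells) was led by matrix and tendon genes, cluster 2 (1353 cells) by cell cycle genes, cluster 3 (1088 cells) by pluripotency genes and cluster 4 (855 cells) by cartilage genes. In the tail, clusters 1, 2 and 4 held 685, 186 and 241 cells. Tail cluster 1 had the fibroblast gene *Osr1* but no gene of the tendon list among its 10 leading genes, although all 14 tendon genes were detected in it, and clusters are therefore called by number. Levels are CPM, the UMIs of a gene per 1e+06 summed UMIs of the cluster, and brackets hold exact 95% intervals that cover counting error only.

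Promoter windows for all 9 genes were found in RefSeq (GRCm38.p6), on chromosomes 15 (*Atf4*), 7 (*Atf5*), 10 (*Ddit3* and *Ddit4*), 2 (*Trib3* and *Chac1*), 6 (*Asns*), 4 (*Sesn2*) and 11 (*Stc2*). They were searched on both strands for TGATGNAA (TTNCATCA on the other strand), the letters of the C/EBP-ATF response element that ATF4 heterodimers bind. *Trib3*, *Chac1* and *Asns* held a match, 3 of 9 genes, while 1219 of all 27025 genes did (4.51%). By windows of the same length the share was 1304 of 32851 (3.97%), and *Atf5* has more than 1 window. The 3 windows are shown because they hold the match. *Sesn2* and *Stc2*, which like these 3 genes were at least 2-fold higher in the culture in clusters 1, 2 and 4, had none. Each is written from the first base 5′ to 3′ on the gene's strand, with the match in capitals.
*Asns*, chr6:7693210-7693459, minus strand, ending at the base before the start: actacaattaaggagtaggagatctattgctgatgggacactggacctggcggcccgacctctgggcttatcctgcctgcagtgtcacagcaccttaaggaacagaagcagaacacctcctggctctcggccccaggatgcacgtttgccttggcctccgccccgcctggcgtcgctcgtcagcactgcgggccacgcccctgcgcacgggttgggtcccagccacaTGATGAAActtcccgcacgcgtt
*Chac1*, chr2:119350992-119351241, plus strand, ending at the base before the start: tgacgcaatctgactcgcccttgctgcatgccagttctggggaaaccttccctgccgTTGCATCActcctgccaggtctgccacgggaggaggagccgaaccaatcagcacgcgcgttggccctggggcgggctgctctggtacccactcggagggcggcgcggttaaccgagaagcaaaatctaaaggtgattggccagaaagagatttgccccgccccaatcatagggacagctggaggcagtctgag
*Trib3*, chr2:152344036-152344310, minus strand, with 25 bases from the start on: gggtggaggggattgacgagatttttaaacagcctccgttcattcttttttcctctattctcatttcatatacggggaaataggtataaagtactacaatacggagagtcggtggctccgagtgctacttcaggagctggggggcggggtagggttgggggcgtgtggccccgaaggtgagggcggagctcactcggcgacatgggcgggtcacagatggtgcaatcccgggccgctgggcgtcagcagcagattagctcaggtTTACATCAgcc
The match lay 23 bases before the annotated start in *Asns*, 193 bases before it in *Chac1* and 15 bases after it in *Trib3*. The stricter letters TGATGCAA (TTGCATCA) were in the window of *Chac1* alone among the 9 genes and in 0.895% of all windows. A match describes letters, not bound sites.

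The 9 genes split into those with many UMIs in the tail and those for which the tail held few or none. *Atf4*, *Atf5*, *Ddit3*, *Ddit4* and *Asns* were read in tail clusters 1, 2 and 4 at 18.9 to 167 CPM, whereas *Trib3*, *Chac1* and *Stc2* lay between 0 and 2.42 CPM there and *Sesn2* between 2.77 and 6.05 CPM. In culture clusters 1, 2 and 4 every one of the 9 genes had at least 48 UMIs. Across all clusters of at least 20 cells, *Chac1* was the one member whose 11 culture clusters all lay above all 13 tail clusters. Such a separation was seen for 0.347% of the genes with enough UMIs in the 2 libraries.

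**Figure D1:**
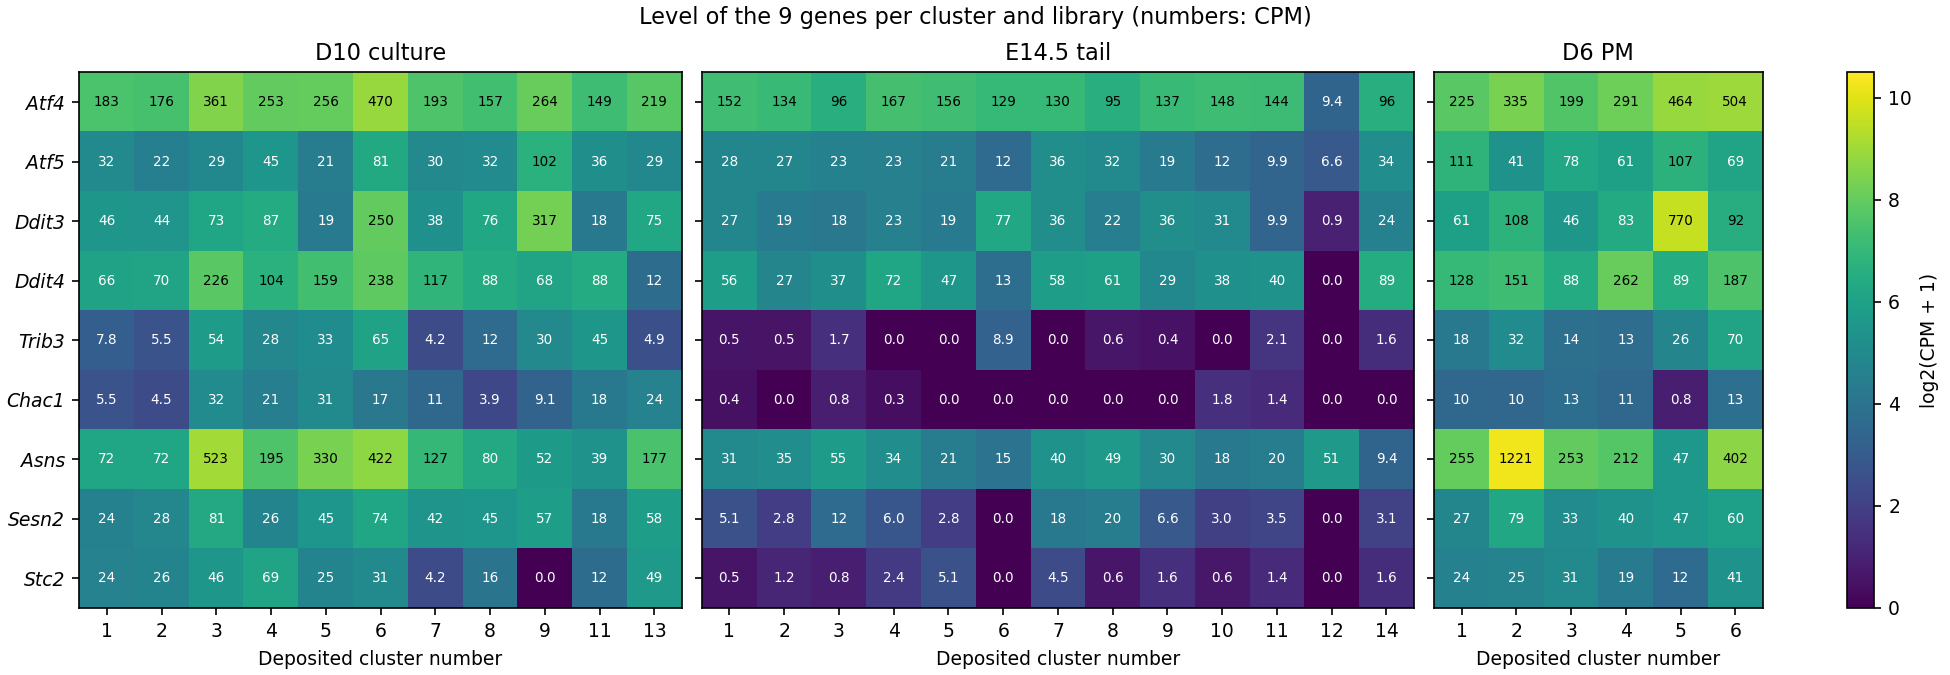
Level of the 9 genes in every deposited cluster with at least 20 cells, for 11 culture, 13 tail and 6 D6 PM clusters. Colour is log2(CPM + 1) and the printed numbers are CPM. Dark squares are low: the rows of *Trib3*, *Chac1* and *Stc2* are dark across the tail and brighter in most culture and D6 PM clusters, and the brightest squares of *Asns* and *Ddit3* fall in different D6 PM clusters (2 and 5).

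Of the transcription factors, *Atf4*, the effector of the response, was present throughout. Its level was 183, 176 and 253 CPM in culture clusters 1, 2 and 4, and 152, 134 and 167 CPM in the same tail clusters. The ratio of culture over tail was 1.20 (1.13 to 1.27), 1.31 (1.20 to 1.44) and 1.52 (1.36 to 1.69). Over all clusters *Atf4* ran from 149 to 469.9 CPM in the culture and from 9.42 to 167 CPM in the tail, and 9 of 11 culture clusters were above the highest tail cluster. The low end of the tail was cluster 12, a blood cluster led by adult haemoglobin genes.

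*Atf5*, a relative of *Atf4* whose translation is controlled in the same way, showed the least difference of the 9 in clusters 1 and 2 by summed counts. Its level was 31.6, 22.2 and 44.5 CPM in culture clusters 1, 2 and 4 and 27.6, 27.5 and 22.7 CPM in the tail. The culture over tail ratio was 1.15 (0.991 to 1.33), 0.809 (0.646 to 1.02) and 1.96 (1.48 to 2.63) in this order of clusters, so that the intervals of clusters 1 and 2 held 1. With the mean of CPM per cell *Atf5* was 1.49 in cluster 1, where *Ddit4* was 1.38. With cells of 5000 to 15000 UMIs only, *Atf5* was 0.650 in cluster 2, where *Asns* was 1.41. *Atf5* shares 571 bases with *Nup62* and 272 bases with *Il4i1* on the opposite strand, and whether counting used the strand is not given in the sources used here.

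*Ddit3* encodes CHOP, the C/EBP family factor linked to cell death under lasting stress. It was read at 45.8, 44.1 and 86.9 CPM in culture clusters 1, 2 and 4, and at 27.5, 18.9 and 23.0 CPM in the tail. The ratio was 1.67 (1.45 to 1.92), 2.33 (1.84 to 2.98) and 3.78 (2.93 to 4.94). The groups overlapped, since the erythroid tail cluster 6 had 76.9 CPM, above 8 of the 11 culture clusters. With cells of 5000 to 15000 UMIs only, the ratio in cluster 4 was 1.66. *Ddit3* overlaps *Mars* by 68 bases on the other strand, and the annotation holds a second gene model of the same symbol.

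*Trib3*, a pseudokinase that CHOP and ATF4 induce and that restrains ATF4, was nearly absent from the tail. It had 130, 59 and 93 UMIs in culture clusters 1, 2 and 4, which is 7.84, 5.51 and 28.0 CPM, against 5, 2 and 0 UMIs in the tail. The culture was 15.9-fold (6.63 to 49.7) higher in cluster 1. With the mean of CPM per cell the first ratio was 28.2. In cluster 2, 59 against 2 UMIs gave a ratio of 11.9 (3.16 to 101). Cluster 4 was 30.8-fold higher against a floor of 3 UMIs over the group, with an interval from 24.6 up. In the tail *Trib3* was highest in the erythroid cluster 6 at 8.87 CPM, and 5 of the 13 tail clusters had no UMI of it.

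*Chac1*, an enzyme that breaks down glutathione and is induced through ATF4, had 91, 48 and 71 UMIs in culture clusters 1, 2 and 4 (5.49, 4.48 and 21.4 CPM). The tail had 4, 0 and 1. The ratio was 13.9 (5.24 to 52.0) in cluster 1 and, from a single tail UMI, 70.6 (12.3 to 2828) in cluster 4, and the culture was at least 6.47-fold higher in cluster 2. With cells of 5000 to 15000 UMIs only, these ratios were 8.68 and 25.4. Over the whole tail library *Chac1* had 11 UMIs in 2052 cells. The culture clusters ran from 3.90 to 32.1 CPM and the tail clusters from 0 to 1.78 CPM, with 8 tail clusters at 0.

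*Asns*, asparagine synthetase, stands for the arm of the response that restores amino acids. Culture clusters 1, 2 and 4 had 71.7, 72.1 and 195 CPM and the tail clusters 30.6, 34.6 and 34.2 CPM. The ratio was 2.34 (2.07 to 2.66), 2.08 (1.74 to 2.50) and 5.72 (4.68 to 7.05), and in cluster 2 it was 1.41 with cells of 5000 to 15000 UMIs only. The tail clusters spanned 9.41 to 55.0 CPM and the culture clusters 39.4 to 523 CPM, and 9 of 11 culture clusters exceeded every tail cluster.

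*Ddit4* (REDD1) and *Sesn2* (sestrin 2) both restrain the growth kinase complex mTORC1. *Ddit4* had 65.7, 69.7 and 104 CPM in culture clusters 1, 2 and 4 and 55.7, 26.8 and 71.7 CPM in the tail, with ratios of 1.18 (1.06 to 1.31), 2.60 (2.14 to 3.19) and 1.45 (1.23 to 1.72). Its direction changed with the cells kept. With cells of 5000 to 15000 UMIs only, *Ddit4* was lower in the culture in clusters 1 (0.881) and 4 (0.817) and higher in cluster 2 (4.42). That window keeps selected cells rather than the same cells at 1 depth. Of the 855 cells of culture cluster 4 only 130 reached 5000 UMIs, and the median of tail cluster 2, at 22536 UMIs, lay above the window.

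*Sesn2*, which also senses leucine, had 23.6, 28.3 and 25.9 CPM in culture clusters 1, 2 and 4 against 5.14, 2.77 and 6.05 CPM in the tail. The ratio was 4.6 (3.44 to 6.27), 10.2 (5.76 to 19.98) and 4.28 (2.61 to 7.35), and the last was 2.12 with cells of 5000 to 15000 UMIs only. Unlike most members it was nearly level across the 3 culture clusters. *Sesn2* lies over the antisense-type gene model *Gm12981* for 6089 bases, annotated on the same strand.

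*Stc2*, a secreted glycoprotein that responds to endoplasmic reticulum stress and hypoxia, had 24.1, 25.6 and 68.9 CPM in culture clusters 1, 2 and 4. The tail had 5, 5 and 8 UMIs there, or 0.494, 1.15 and 2.42 CPM. The ratios, 48.7 (20.7 to 151), 22.2 (9.38 to 68.8) and 28.5 (14.2 to 66.7), were the highest of the 9 genes in clusters 1 and 2, leaving out ratios against the floor. With the mean of CPM per cell the ratio in cluster 4 was 47.1. Culture cluster 9, led by macrophage genes, had no *Stc2* UMI in 53 cells, which allows up to 6.83 CPM.

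**Figure D2:**
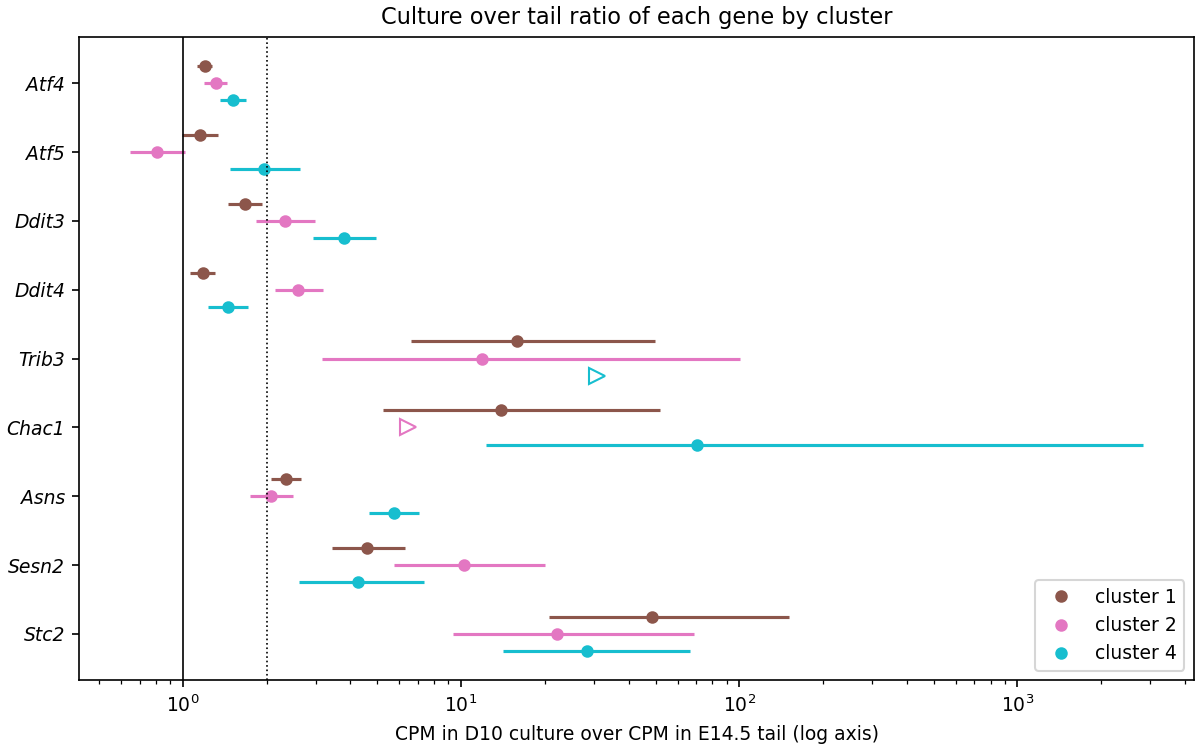
Ratio of culture CPM over tail CPM for each of the 9 genes in clusters 1, 2 and 4, on a log axis. Points are ratios, bars are 95% counting intervals, open triangles are lower bounds where the tail had 0 UMIs, the solid line marks a ratio of 1 and the dotted line 2. *Stc2*, *Chac1* and *Trib3* sit above 6-fold in each cluster, and *Atf4* and *Atf5* stay under 2-fold.

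At a ratio of 2 or more, 5 of the 9 genes were higher in the culture in cluster 1, 7 in cluster 2 and 6 in cluster 4. The count in cluster 2 was 4 with cells of 5000 to 15000 UMIs only, where *Asns* was under 2-fold. There *Trib3*, *Chac1* and *Stc2* had no tail UMI and were counted by their ratios against the floor. None was lower at that fold. Of all genes with enough UMIs, 7.54%, 6.86% and 7.28% were higher at that fold in these clusters, and 13.4%, 11.5% and 12.6% were lower. These shares are of genes that passed the filter on low counts, as 7, 7 and 9 of the members did, and of those members 3, 5 and 6 were higher. Since the genes were chosen with this comparison known, nothing is read from the excess. The median ratio of the 9 genes was 2.34, 2.60 and 4.28, whereas all tested genes had a median of 0.882, 0.903 and 0.901.

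Outside the connective tissue, cluster 11 was led by endothelial genes in both libraries. There 6 of 9 genes were at least 2-fold higher in the culture, but from few UMIs, such as 6 against 5 for *Sesn2* (5.15, 1.31 to 21.3). Of the 5 members that passed the filter on low counts in that cluster 2 were higher, *Atf5* (3.68) and *Ddit4* (2.22), and 12.5% of all genes that passed it were. *Atf4* was level there at 1.03. In cluster 5, all 9 members passed the filter and 6 were at least 2-fold higher in the culture (13.5% of all genes), among them *Sesn2* at 16.2-fold and *Asns* at 15.9-fold, while *Ddit3* (1.004) and *Atf5* (0.987) were level. Muscle genes led cluster 5 in both libraries, but the cells were not alike. *Myog* was 36.8 CPM in the culture and 1331 CPM in the tail, and the pluripotency gene *Pou5f1* was 351 and 3.23 CPM. Clusters 3 and 6 did not hold like cells either, since cluster 3 was led by pluripotency genes in the culture and by *S100a9*, *S100a8* and *Krt14*, among others, in the tail, and in cluster 6, where erythroid genes took a different share of the UMIs, 84.7% of all genes were at least 2-fold higher in the culture. Apart from *Krt8* in cluster 7 and *Krt19* in cluster 8, clusters 7 and 8 were led by different genes in the 2 libraries. There 2 of 9 (10.9% of all genes) and 5 of 9 (16.0%) were at least 2-fold higher in the culture. In cluster 9, with macrophage genes in both libraries and mast cell genes in the tail, 6 of 9 were (11.6%), led by *Ddit3* at 8.85-fold among those with more than 1 tail UMI. Of the 6 members that passed the filter on low counts in each of these clusters, 2, 2 and 4 were higher.

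Within the culture, the members were not highest in the clusters of connective tissue cells. Cluster 6, led by embryonic haemoglobin genes, was highest for *Atf4* (469.9 CPM), *Ddit4* (238 CPM) and *Trib3* (65.1 CPM). That cluster also held *Pou5f1* at 346 CPM, *Nanog* at 84.2 CPM and *Epcam* at 464 CPM, and the part of such cells in its levels was not tested. The pluripotency-led cluster 3 was highest for *Asns* (523 CPM), *Chac1* (32.1 CPM) and *Sesn2* (80.8 CPM), and the macrophage-led cluster 9 for *Ddit3* (317 CPM) and *Atf5* (102 CPM). *Stc2* alone was highest in the cartilage-led cluster 4. For *Atf4* and *Asns* the interval of the highest cluster lay clear of the next, and for the other 7 genes it overlapped the next.

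Among the 3 connective tissue clusters of the culture, cluster 4 stood above cluster 1 for every member except *Sesn2*, whose ratio was 1.09 (0.856 to 1.39). *Chac1* was 3.89-fold, *Trib3* 3.57-fold, *Stc2* 2.86-fold and *Asns* 2.72-fold higher in cluster 4, so that 4 of 9 members were at least 2-fold higher where 2.45% of all genes were. The genes were chosen with values of the culture known, so that nothing is read from an excess within the culture, here or below. Median depth was 3696 UMIs per cell in cluster 4 and 4918.5 in cluster 1, and these ratios were not repeated within a depth window. Clusters 2 and 1 were close. No member differed 2-fold between them (3.58% of all genes were at least 2-fold higher and 0.785% lower in cluster 2), and the ratios ran from 0.702 for *Atf5* to 1.20 for *Sesn2*. In the tail the same step from cluster 1 to cluster 4 gave a ratio of 2 or more for *Stc2* alone, at 4.90 from 8 and 5 UMIs (3.78% of all genes). Tail clusters 4 and 1 held 0 and 5 UMIs of *Trib3* and 1 and 4 of *Chac1*, too few to show or lack such a step. *Asns*, with more UMIs, was level there at 1.12 (0.892 to 1.39).

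Cluster 3 of the culture was at least 2-fold above cluster 1 for 5 members, *Asns* (7.29), *Trib3* (6.95), *Chac1* (5.85), *Ddit4* (3.44) and *Sesn2* (3.42), where 21.5% of all genes were. Cluster 9 was at least 2-fold above cluster 1 for 4 members (14.8% of all genes), *Ddit3* (6.92), *Trib3* (3.78), *Atf5* (3.24) and *Sesn2* (2.41). *Asns* did not follow, with a ratio of 0.730 (0.461 to 1.10), and *Stc2*, with no UMI in cluster 9 and 24.1 CPM in cluster 1, was at least 2-fold lower (22.3% of all genes).

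The D6 PM is the stage before TGFβ1 and SAG were given. The genes were chosen with the values of the tail known, so that nothing is read from the excess of the D6 PM over the tail. Over the whole libraries, all 9 genes were at least 2-fold higher in the D6 PM than in the tail (11.0% of all genes), from 2.13-fold for *Atf4* to 29.8-fold for *Trib3*. *Chac1* was 27.7-fold, *Stc2* 18.7-fold, *Asns* 14.6-fold and *Sesn2* 8.27-fold higher. Against the same tail library the whole D10 culture was at least 2-fold higher for 7 members (8.67% of all genes), with *Atf4* at 1.77 and *Atf5* at 1.31 under that fold. These comparisons share the tail library, and the libraries hold different cell types.

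Set directly against the D10 culture, the D6 PM was at least 2-fold higher for 3 members (6.81% of all genes), *Atf5* (2.68), *Ddit3* (2.57) and *Asns* (2.06). *Trib3* was level at 0.940, and *Stc2* (0.749) and *Chac1* (0.611) were lower at D6. The pluripotency-led clusters existed at both times, as cluster 2 of the D6 PM and cluster 3 of the culture. There *Asns* was 2.34-fold (2.27 to 2.41) higher at D6, from 1221 against 523 CPM, and was the 1 member past 2-fold (3.29% of all genes). *Chac1* went the other way at 0.318 (0.257 to 0.390), from 10.2 against 32.1 CPM (4.82% of all genes were at least 2-fold lower).

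Cluster 4 of the D6 PM was led by *Zic1* and held the somite gene *Aldh1a2* among its leading genes. Compared with tail cluster 1, whose values were known when the genes were chosen, it was at least 2-fold higher for 8 members (10.4% of all genes). Compared with culture cluster 1, it was at least 2-fold higher for *Ddit4* (3.99) and *Asns* (2.96), 2 of 9 members (11.5% of all genes).

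Within the D6 PM, *Ddit3* and *Asns* were highest in different clusters. *Ddit3* was 770.1 CPM (748 to 793) in cluster 5, and 108 CPM or less in the other 5 clusters. Cluster 5 was led by *Col1a1*, *Bgn*, *Lyz2* and *Dcn*, and it was 12.7-fold (11.8 to 13.5) above cluster 1 in *Ddit3* and 2.06-fold in *Atf4*, 2 of 9 members (18.9% of all genes). In the same cluster *Asns* (46.8 CPM), *Chac1* (0.848 CPM, 5 UMIs) and *Stc2* (11.9 CPM) were at least 2-fold lower than in cluster 1, where 21.0% of all genes were.

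Cluster 2 of the D6 PM was the highest for *Asns* and the next after cluster 5 for *Ddit3*. *Asns* was 1221 CPM (1202 to 1241) there, 4.79-fold above cluster 1, *Sesn2* was 2.88-fold above it, and these were the 2 members past 2-fold (14.1% of all genes). *Ddit3*, at 108 CPM, was 1.77-fold and *Atf4* 1.49-fold above cluster 1, *Chac1* (0.989) and *Stc2* (1.05) were level, and *Atf5* was lower at 0.369 (16.9% of all genes). Across the 6 D6 PM clusters the Pearson correlation of log2(CPM + 1) was −0.63 between *Ddit3* and *Asns*. Over all 30 clusters of the 3 libraries *Ddit3* and *Asns* had r = 0.38. These points share libraries and are given as a description.

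**Figure D3:**
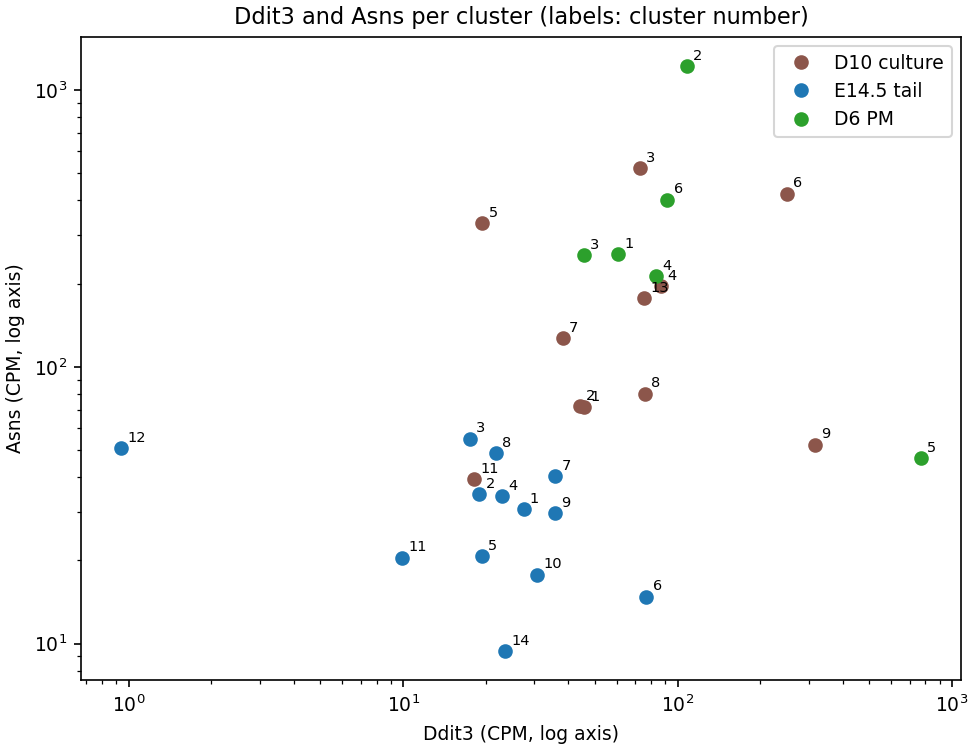
*Ddit3* against *Asns* in every deposited cluster with at least 20 cells, both in CPM on log axes, coloured by library. Cluster 5 of the D6 PM lies at 770.1 CPM of *Ddit3* and 46.8 CPM of *Asns*, and cluster 2 at 108 and 1221 CPM, while most tail clusters gather at low values of both.

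Culture cluster 9 and D6 PM cluster 5 both had *Lyz2* and *Tyrobp* as well as *Col1a1*. *Lyz2* was 1102 CPM in culture cluster 9 and 626 CPM in D6 PM cluster 5, *Tyrobp* was 512 and 84.8 CPM, and *Col1a1* was 2166 and 3858 CPM. *Ddit3* was highest of its library in each, 317 and 770.1 CPM, with *Asns* at 52.4 and 46.8 CPM. Set directly against culture cluster 9, D6 PM cluster 5 was 2.43-fold (2.05 to 2.90) higher in *Ddit3* and 1.76-fold higher in *Atf4*. *Chac1* was 0.0930 (0.0200 to 0.469) from 5 and 4 UMIs, and *Stc2* had 11.9 CPM against no UMI. Cluster 9 of the tail, with *Lyz2* at 713 CPM and *Tyrobp* at 549.8 CPM, had *Ddit3* at 35.8 CPM.

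Shares of cells with a UMI were compared after each cell was thinned to 3000 UMIs, which left out 1157 culture, 100 tail and 1006 D6 PM cells. *Atf4* was found in 40.5% of culture cluster 1 and 35.1% of tail cluster 1. *Asns* was found in 16.3% (14.9 to 17.8) of culture cells and 7.67% (5.78 to 9.94) of tail cells of that cluster. *Stc2* was found in 7.48% (6.49 to 8.56) and in 0 of 678 cells, with an interval up to 0.543% at that depth. Of all 685 cells of tail cluster 1, 0.730% had a *Stc2* UMI before thinning. Before thinning the shares of *Asns* were 24.8% of all 2964 culture cells and 30.8% of all 685 tail cells, so that the order of the libraries turned. The thinned shares also left out 369 culture and 7 tail cells of that cluster, so that the turn is not from thinning alone. Without thinning the share of *Asns* was higher in the deeper tail cells, and after thinning it was higher in the culture, as the CPM was.

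In tail cluster 12, a blood cluster that served as background for the tail (125 cells after thinning, median 8391.5 UMIs over all 128), the thinned share was 0.800% for *Atf4* and *Atf5* and 0 for *Ddit3*, *Ddit4*, *Trib3*, *Chac1*, *Sesn2* and *Stc2*. *Asns* was present there in 11.2% (6.26 to 18.1) of cells, at 50.8 CPM against 31.4 CPM in the whole tail, so that this cluster gives no background for *Asns*. The share of *Asns* was 11.2% (7.55 to 15.9) in tail cluster 4 and 29.5% (26.0 to 33.2) in culture cluster 4, and it reached 86.4% in D6 PM cluster 2. *Ddit3* had a UMI in 72.7% (68.4 to 76.6) of cells of D6 PM cluster 5 and in 15.2% of cluster 1. Free RNA differs between libraries, and no cluster of the culture or the D6 PM served as background, the lowest *Ddit3* share of the D6 PM being 11.7% in cluster 3.

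In culture clusters 1, 2 and 4, most pairs of members were found in the same cells more often than the product of their shares. For pairs with at least 5 expected cells at 3000 UMIs, 28 of 28 in culture cluster 1 lay above 1, with a median of 1.46, and 31 of 31 in cluster 4, with a median of 1.5. At 5000 UMIs, which fewer cells reach, cluster 4 had 9 of 13 pairs above 1, with a median of 1.2. *Ddit3* and *Trib3* were together in 24 cells of cluster 1 where the product gave 7.36. In cluster 2, 20 of 23 pairs were above 1, with a median of 1.25. Of culture cluster 1, 67.6% of cells held at least 1 of the 9 genes, 27.5% at least 2 and 10.4% at least 3. Independent genes would give 72.1%, 30.5% and 7.60%, so that the observed share was above that value at 3 genes and below it at 1 and 2.

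The tail gave few pairs to compare, 4 of 7 above 1 in cluster 1 and 2 of 4 in cluster 4, so that the difference between the libraries cannot be read. The D6 PM gave 33 of 33 pairs in cluster 1 and 28 of 29 in cluster 3, with medians of 1.45 and 1.43. In its clusters 2 and 5, where *Asns* and *Ddit3* peak, the medians were 1.18 and 1.05. Cells within a cluster differ in more than these genes, and the part of such differences in the excess was not tested.

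**Figure D4:**
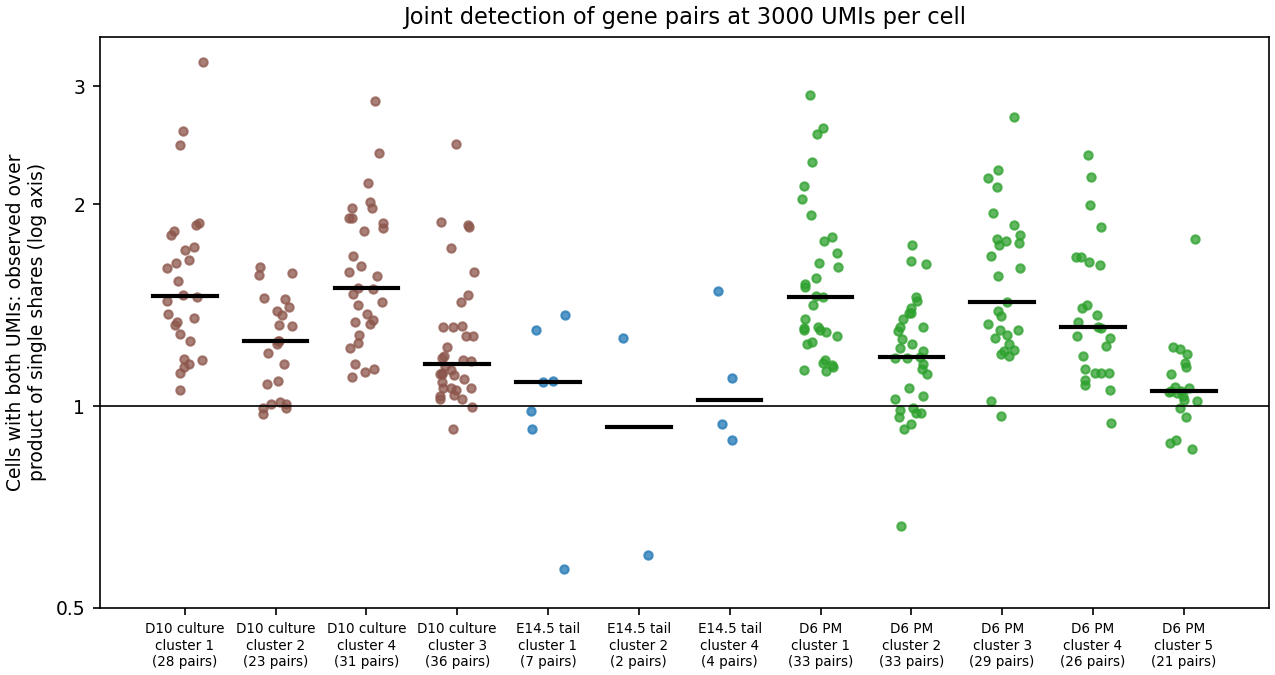
Cells with UMIs of both genes over the number given by the product of the 2 shares, for each pair of members with at least 5 expected cells, at 3000 UMIs per cell. Each point is a pair on a log axis, columns are clusters of the 3 libraries, black bars are medians and the line at 1 marks the product. All 28 pairs of culture cluster 1 and all 31 of cluster 4 lie above 1, and 16 of 21 pairs of D6 PM cluster 5 do.

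Other genes of the pathway were followed in lists that were written with earlier results of these data known. Counts are of tested genes in cluster 1 at a ratio of 2 or more, against the 7.54% of all genes higher and 13.4% lower. Where clusters 2 and 4 are named, 6.86% and 7.28% of all genes were higher. The upstream machinery, the eIF2 kinases, eIF2 and eIF2B subunits and phosphatase subunits, had 0 of 14 genes higher and 1 lower, with a median ratio of 1.01. *Eif2s1*, the phosphorylated subunit, was 1.28, and *Ppp1r15a* (GADD34), the inducible phosphatase subunit that CHOP and ATF4 switch on, was 0.457.

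The C/EBP and ATF partners had 1 of 9 higher, *Cebpd* (2.22), and 2 lower, *Jund* (0.251) and *Atf3* (0.154), the last an ATF4 target itself. Serine, glycine and one-carbon enzymes, which ATF4 induces with *Asns*, had 6 of 14 higher in cluster 1, led by *Aldh1l2* (3.0) and *Mthfd2* (2.54), with *Cth* lowest at 0.610. In cluster 4, 7 of 14 were higher and all 14 ratios were above 1, though for *Cth*, *Gpt2*, *Pck2* and *Shmt1* the interval held 1. In cluster 2, 1 of 14 was higher, where 6.86% of all genes were.

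Of the amino acid transporters, 3 of 9 were higher and 1 lower. *Slc7a5* (6.66) and *Slc3a2* (2.03), the light and heavy chains of the leucine carrier LAT1, were both higher, while the cystine carrier *Slc7a11*, also an ATF4 target, was lower (0.173). The cytosolic aminoacyl-tRNA synthetases had 1 of 20 past 2-fold, *Gars* (2.27), yet 18 of 20 ratios were above 1, with a median of 1.31. In cluster 4, 6 of 20 synthetases were past 2-fold, with a median of 1.5.

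Further ATF4 and CHOP targets had 10 of 21 higher and 1 lower in cluster 1, with a median of 1.94. *Pmaip1* (NOXA) was 122-fold (41.4 to 592) higher from 598 against 3 UMIs, *Fgf21*, a stress hormone, was 19.0-fold and *Nupr1* 11.6-fold higher, and *Vldlr* was 0.524. In clusters 2 and 4 the counts were 11 of 21 and 10 of 20. Of the 21 tested genes, 8 stand in another list too: *Pmaip1* and *Bbc3* among p53 targets, *Ero1l*, *Ndrg1* and *Vegfa* among hypoxia genes, and *Slc7a11*, *Gpt2* and *Cebpg* in the lists above.

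Lists of neighbouring stress responses differed from one another. Endoplasmic reticulum chaperones with XBP1 and ATF6 targets had 1 of 19 past 2-fold, *Edem1* (2.27), with a median of 1.43, and mitochondrial chaperones and proteases had 0 of 10 and a median of 0.856. Hypoxia genes had 15 of 19 higher with a median of 3.63, led by *Egln3* (15.0), *Bhlhe40* (11.4) and *Ero1l* (9.02). The p53 targets had 10 of 14 higher, led by the cell cycle inhibitor *Cdkn1a* (204), and 1 lower, *Sesn1* (0.415). *Ddit4*, *Sesn2* and *Stc2* respond to hypoxia or p53 as well as to ATF4, and the part of each pathway in their values was not tested.

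Immediate early and heat shock genes went the other way, with 1 of 14 higher, *Ier3* (8.57), and 8 lower. *Fos* was 889 CPM in tail cluster 1 and 27.3 CPM in culture cluster 1, a ratio of 0.0307, and *Fosb* was 0.0221. Such genes are known to be switched on while tissue is dissociated. *Atf3* stands in this list as well as among the C/EBP and ATF partners. The part of dissociation in the members' values was not tested.

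**Figure D5:**
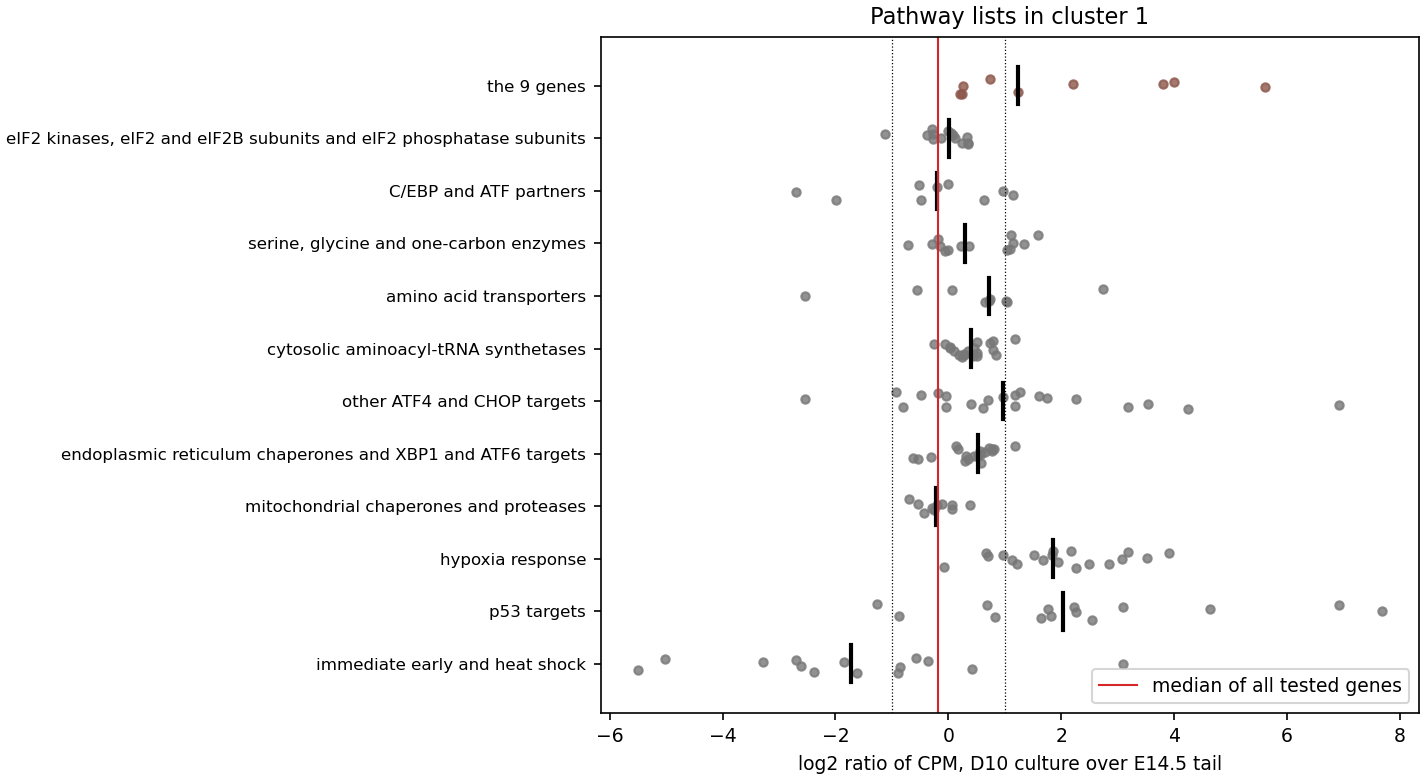
Log2 ratio of culture over tail in cluster 1 for the 9 genes and for the tested genes of 11 pathway lists. Points are genes, black bars are list medians, the red line is the median of all tested genes (−0.18) and dotted lines mark 2-fold. The hypoxia and p53 lists lie farthest above the red line (median ratios 3.63 and 4.08) and the immediate early and heat shock list farthest below it (0.301).

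To find genes with a like pattern, the mean of the standardised log2(CPM + 1) of the 9 genes was set against 14590 other genes over the 30 clusters. The highest Pearson correlations were those of *Aldoa* (0.945) and *Pgk1* (0.935), which are enzymes of glycolysis, *Nampt* (0.929), an enzyme of NAD synthesis, and *Bnip3* (0.917), a mitophagy receptor. *Gpi1*, *Pgm1*, *Mafg*, *Clybl*, *Acot13* and *Zmat3* followed at 0.913 to 0.897. The members themselves correlated with their own mean at 0.917 (*Sesn2*) to 0.756 (*Ddit3*), but each is part of that mean, so that nothing is read from these values. Between 2 members, r ran from 0.38 (*Ddit3* and *Asns*) to 0.83 (*Atf4* and *Ddit4*) over the 30 clusters. Over the 11 culture clusters alone it ran from −0.48 (*Atf5* and *Stc2*) to 0.83 (*Atf5* and *Ddit3*). The 9 genes were chosen with the difference between culture and tail known, and 13 of the 30 clusters are tail clusters. A gene that is low in the tail can therefore rank high for that reason alone. No ranking within 1 library was made. The clusters of 1 library also share its depth and handling, so that these values are descriptions.

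Several measures moved with the comparison of culture and tail. The mitochondrial share of UMIs was 2.01%, 1.59% and 1.59% in culture clusters 1, 2 and 4 and 3.15%, 2.60% and 2.99% in the tail. The cell cycle gene *Mki67* was 133, 950 and 121 CPM in these culture clusters and 33.8, 1072 and 43.5 CPM in the tail. RNA of the erythroid list summed to 2045, 8822 and 6444 CPM in tail clusters 1, 2 and 4 and to 38.5, 7.75 and 12.9 CPM in the culture, with all 9 of its genes detected in each tail cluster. Leaving ribosomal, mitochondrial and haemoglobin genes out of the totals kept all 25 ratios on their side of 1. The fibroblast list summed to 2094 CPM in tail cluster 1 and to 726 CPM in culture cluster 1. The pluripotent list was 47.7, 53.6 and 43.6 CPM in culture clusters 1, 2 and 4, where cluster 3 had 7169 CPM. The culture cells were grown in medium and the tail cells taken from embryos, and the part of cell source, handling and library preparation cannot be told apart with 1 library of each.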

How the data were processed

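Whole-number UMI counts per gene and cell were deposited by the authors, with a cluster code for each cell. The libraries were 10x Genomics 3′ single-cell libraries of cells cleared of dead cells. Per the labels, reads were processed with Cell Ranger and cells with Seurat 3.0. The authors ignored reads that mapped to several places and filtered cells on mitochondrial share and on extremes of transcripts detected per cell. The genome annotation behind the counts and any strand setting are not given in the sources used here.

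Counts were summed per cluster code and library and scaled to CPM (Python 3.11.15, NumPy 2.4.6, SciPy 1.17.1, pandas 2.3.3, Matplotlib 3.10.9). Levels carry exact Poisson intervals, ratios exact conditional binomial intervals and shares Clopper-Pearson intervals, at 95%. With 1 library per group no test was run. Ratios against 0 UMIs used a floor of 3 UMIs over the group. A gene entered the background share when it had 20 or more UMIs across the groups compared and averaged 5 CPM or more. Doublets were called with Scrublet in Scanpy 1.11.5 at an expected rate of 6% and kept. The members and lists were chosen with earlier results of these data known. Besides the members, the text names up to 3 genes at either end of each list in cluster 1, the 10 genes most correlated with the members, and cell type markers. The pathway lists are those described in the report, and the marker lists named there served to check cluster labels. Alternatives were another fold, no filter on low counts, totals without ribosomal, mitochondrial and haemoglobin genes, no doublets, and cells of 5000 to 15000 UMIs. Others were no cells under 1000 genes, ratios relative to the median gene, the mean of CPM per cell, and other thinning depths.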

Additional observations from a re-analysis of the deposited data

How the results depend on the processing

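No paired analysis was possible because each group has 1 library. Of 148 alternatives to the 25 culture over tail ratios in clusters 1, 2 and 4, 146 kept their side of 1. The exceptions were *Ddit4* with cells of 5000 to 15000 UMIs only (0.881 in cluster 1 and 0.817 in cluster 4). The count pools 6 settings that differ in their effect. Without called doublets, or without cells under 1000 genes, all 25 ratios were classed as the same. So were all 25 with totals without ribosomal, mitochondrial and haemoglobin genes. Ratios relative to the median gene moved 3, and the mean of CPM per cell moved 4. The depth window of 5000 to 15000 UMIs moved 12 ratios, with 11 classed as the same. Of 94 alternatives to ratios of 2 or more, 92 stayed there, the exceptions being *Asns* in cluster 2 (1.41) and *Ddit3* in cluster 4 (1.66), both with that depth window, and 8 alternatives moved a ratio over 1.5 times, the most for *Chac1* in cluster 4 (70.6, and 25.4 with that window). With the mean of CPM per cell *Trib3* in cluster 1 was 28.2 and *Stc2* in cluster 4 was 47.1. The count of members at least 2-fold higher in cluster 2 was 4 with that window and 4 at a 3-fold limit, in place of 7 (*Trib3*, *Chac1* and *Stc2* had no tail UMI in the window). Among members passing the filter on low counts in cluster 1 it was 3, and 5 without the filter. At 5000 in place of 3000 UMIs per cell, 18.2% of pairs in tail cluster 1 lay above the product of their shares, in place of 57.1%, 28.6% in tail cluster 4, in place of 50%, and 9 of 13 pairs in culture cluster 4, in place of 31 of 31. Only 1 member held the motif with C at the open base, in place of 3. The highest cluster of each member was the same without called doublets. A 1.5-fold limit moved 14 list counts, with 19 classed as the same. Ratios relative to the median gene moved 9 list counts, with 24 classed as the same. Totals without ribosomal, mitochondrial and haemoglobin genes moved 4 whole-library ratios of D6 PM over D10 culture, with 5 classed as the same. Ratios of *Trib3*, *Chac1* and *Stc2* rest on few tail UMIs, since tail clusters 1, 2 and 4 held 0 to 8 of each. The summed UMIs of cluster 4 were 3325501 in the culture and 3307424 in the tail.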
